A study of Mus musculus with 9 samples.

Results

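The 10 genes described here encode replacement histones and abundant high mobility group (HMG) proteins of mouse brain nuclei: H3f3a, H3f3b, H2afz, H2afx, H2afj, H2afv, H2afy, H1f0, Hmgb1 and Hmgn1. They are 10 of 31053 genes in the count tables, were chosen by symbol with earlier results of these samples in view, and all 10 were found once in the gene list. Nuclei came from the pooled cortex and hippocampus of 9 wild-type (WT) male C57BL/6 mice, and UMIs (unique molecular identifiers, each marking 1 captured RNA molecule) were counted in each nucleus. Young AAV-EGFP mice were 5 months old and aged AAV-EGFP and aged AAV-B3GNT3 mice were 19 months old, with 3 mice and 3 libraries in each group. All 9 mice, controls included, had received an adeno-associated virus (AAV) through the retro-orbital vein 8 weeks before tissue was taken. The capsid (PHP.V1) favours brain vessels and a short CLDN5 promoter drives the cargo in endothelial cells, so a change in another cell type is not a change in cells that the promoter is meant to reach. EGFP is a fluorescent control protein, and B3GNT3 is a glycosyltransferase that extends mucin-type O-glycans.

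The core histones of newly replicated chromatin come from clustered genes that are active in S phase and give transcripts without a poly(A) tail. Replacement histones come from single genes outside those clusters, are made throughout the cell cycle and in cells that no longer divide, and give polyadenylated transcripts that a 3′ kit can capture. H3f3a and H3f3b are separate genes for the same protein, histone H3.3, which is laid down at active genes and at repeats and accumulates in neurons as they age. The other histones replace H2A (H2A.Z from H2afz and H2afv, H2A.X from H2afx, H2A.J from H2afj, macroH2A1 from H2afy) or bind linker DNA (H1.0 from H1f0), whereas HMGB1 bends DNA and HMGN1 binds nucleosomes.

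H3f3a lies on the minus strand of chromosome 1 (GRCm38, 180800832 to 180813943) and H3f3b on the minus strand of chromosome 11 (116021912 to 116027962), both annotated as protein coding. By the GENCODE annotation the gene spans are 13.1 kb for H3f3a and 6.05 kb for H3f3b. The RefSeq start used below for H3f3b lies well inside its GENCODE span, so the span from that start is shorter. Their promoter sequences are shown because the genes give the same protein and the data turn on how differently their transcripts were counted. The windows run from 250 bases before to 50 after the RefSeq start site (GRCm38.p6, minus strand), at chr1:180813556-180813855 and chr11:116024455-116024754. Capitals mark exact matches, on either strand, to TATAAA (the TATA box), CCAAT, ATGCAAAT (the octamer of histone and other promoters) or GGGCGG (the core of a GC box).
H3f3a promoter: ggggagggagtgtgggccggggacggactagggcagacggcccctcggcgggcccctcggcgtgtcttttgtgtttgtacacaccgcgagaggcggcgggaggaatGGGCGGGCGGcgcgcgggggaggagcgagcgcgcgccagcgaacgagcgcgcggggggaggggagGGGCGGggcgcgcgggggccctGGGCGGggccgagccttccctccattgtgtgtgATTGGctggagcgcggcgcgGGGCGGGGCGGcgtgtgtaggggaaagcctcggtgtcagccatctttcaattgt
H3f3b promoter: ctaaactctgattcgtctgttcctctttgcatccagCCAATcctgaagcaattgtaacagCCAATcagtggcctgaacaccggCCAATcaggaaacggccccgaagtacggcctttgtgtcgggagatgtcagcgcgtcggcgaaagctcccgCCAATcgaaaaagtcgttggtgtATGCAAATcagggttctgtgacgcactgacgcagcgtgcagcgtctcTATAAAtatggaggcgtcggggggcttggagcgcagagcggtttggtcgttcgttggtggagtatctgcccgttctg
The H3f3b window held 4 CCAAT matches, 1 TATAAA match that begins 27 bases before the start and 1 ATGCAAAT match, and no GGGCGG. The H3f3a window held 6 GGGCGG matches, some of which overlap, 1 CCAAT match on the opposite strand, and neither TATAAA nor ATGCAAAT. GC content was 55% for H3f3b and 74% for H3f3a, against a median of 52.7% over all 32851 RefSeq windows. Among those windows 13.6% held TATAAA, 1.74% ATGCAAAT, 37.4% CCAAT, 3.37% at least 3 CCAAT and 35.7% GGGCGG. Windows were found for 9 of the 10 genes (10 windows, since Hmgb1 has 2 starts), and none was found for H2afx. Of these 10 windows, 5 held at least 3 CCAAT, and the H3f3b window alone held TATAAA or ATGCAAAT.

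The nuclei fell into 9 classes that had at least 10 nuclei in every sample, and fixed markers named them. They were excitatory neurons (20355 nuclei), inhibitory neurons (11436), astrocytes (8390), oligodendrocytes (20376), oligodendrocyte precursors (2677), microglia (1892), brain endothelial cells (736), pericytes (968) and fibroblasts (1785). Another 1603 nuclei lay in 4 clusters that stayed unnamed. All 6 markers passed in the clusters of astrocytes, oligodendrocytes, precursors, microglia, endothelial cells and pericytes, and a fibroblast cluster of 553 nuclei passed on 3 of 6. Of the inhibitory clusters, that of 4414 nuclei passed on 6 of 6. Another of 3678 nuclei passed on 4 of 6 and was led by Drd2, Tspear and Sh3rf2. An inhibitory cluster of 3344 nuclei also passed on 4 of 6 and was led by Adamts19, Tacr1 and Vipr2, none of them a fixed marker. With no doublets removed, a cluster of 3527 nuclei had these genes and Slc17a6, a gene of glutamatergic neurons, among its leading genes. Whether the inhibitory class holds glutamatergic nuclei was not tested. Libraries held 47332047 to 79964605 UMIs and pairs of libraries shared 7 to 37 barcodes. The mouse gene B3gnt3 had 8, 3 and 1 UMIs in endothelial nuclei of young, 0, 0 and 0 of aged AAV-EGFP and 0, 3 and 3 of aged AAV-B3GNT3 mice, too few to check the labels, and whether reads of the viral transcript are among them is not known.

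H3f3b separated the aged AAV-EGFP mice from both other groups in every class. Levels are given in CPM (UMIs of the gene scaled to a common library total of 1000000) of the summed nuclei of a class in each mouse, in the order of replicates 1, 2 and 3. That total is the sum over the genes tested in the class, adjusted by the scaling factors (TMM) of the fit. In oligodendrocytes H3f3b was at 27.1, 41.6 and 32.2 CPM in young AAV-EGFP mice, 72.9, 218 and 131 in aged AAV-EGFP mice and 29.6, 28.1 and 41.4 in aged AAV-B3GNT3 mice. Every aged AAV-EGFP sample lay above all 6 others, and the young and aged AAV-B3GNT3 samples covered the same range. Group means were 33.6 ± 7.35, 140 ± 72.8 and 33.03 ± 7.27 CPM (SD, n = 3 each). In excitatory neurons the values were 17.2, 19.8 and 21.3 CPM in young, 27.5, 58.7 and 42.4 in aged AAV-EGFP and 18.4, 17.4 and 22.3 in aged AAV-B3GNT3 mice. The aged AAV-EGFP samples again lay above the 6 others, at lower levels than in oligodendrocytes.

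Microglia, the immune cells of the brain, held H3f3b at 42.6, 53.4 and 45.6 CPM in young mice, 80.6, 178 and 119 in aged AAV-EGFP and 38.6, 24.2 and 41.0 in aged AAV-B3GNT3 mice. Astrocytes held 25.1, 34.2 and 28.5 CPM, then 37.8, 76.2 and 69.9, then 19.4, 20.1 and 26.8 in the same order of groups. In both classes the lowest aged AAV-EGFP sample was replicate 1, and it was still above each of the 6 samples of the other groups. The levels in pericytes, which wrap capillaries, were 44.4, 77.0 and 79.3 CPM in young, 123, 394 and 183 in aged AAV-EGFP and 64.5, 56.7 and 114 in aged AAV-B3GNT3 mice. There the separation was narrow and rested on few counts. Aged AAV-EGFP replicate 1 (123 CPM) had 9 H3f3b UMIs from 44 nuclei, and aged AAV-B3GNT3 replicate 3 (114 CPM) had 23.

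Brain endothelial cells, the class that the promoter of the virus addresses, had the highest H3f3b level of the 9 classes. Their values were 86.2, 187 and 190 CPM in young, 355, 434 and 369 in aged AAV-EGFP and 170, 72.4 and 220 in aged AAV-B3GNT3 mice. Inhibitory neurons ran from 17.9 to 25.1 CPM in young, 36.7 to 69.7 in aged AAV-EGFP and 17.9 to 26.0 in aged AAV-B3GNT3 mice. Fibroblasts ran from 41.6 to 59.7, 94.4 to 214 and 35.2 to 53.7 CPM, and oligodendrocyte precursors from 11.9 to 24.3, 37.5 to 115 and 16.5 to 31.2 CPM. Aged AAV-EGFP replicate 2 had the highest H3f3b level of all 9 samples in 9 of 9 classes. Every aged AAV-EGFP sample exceeded every young sample, and every aged AAV-B3GNT3 sample, in 9 of 9 classes, where 14.3% and 11.4% of all gene-by-class combinations tested were parted in this way.

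**Figure D1:**
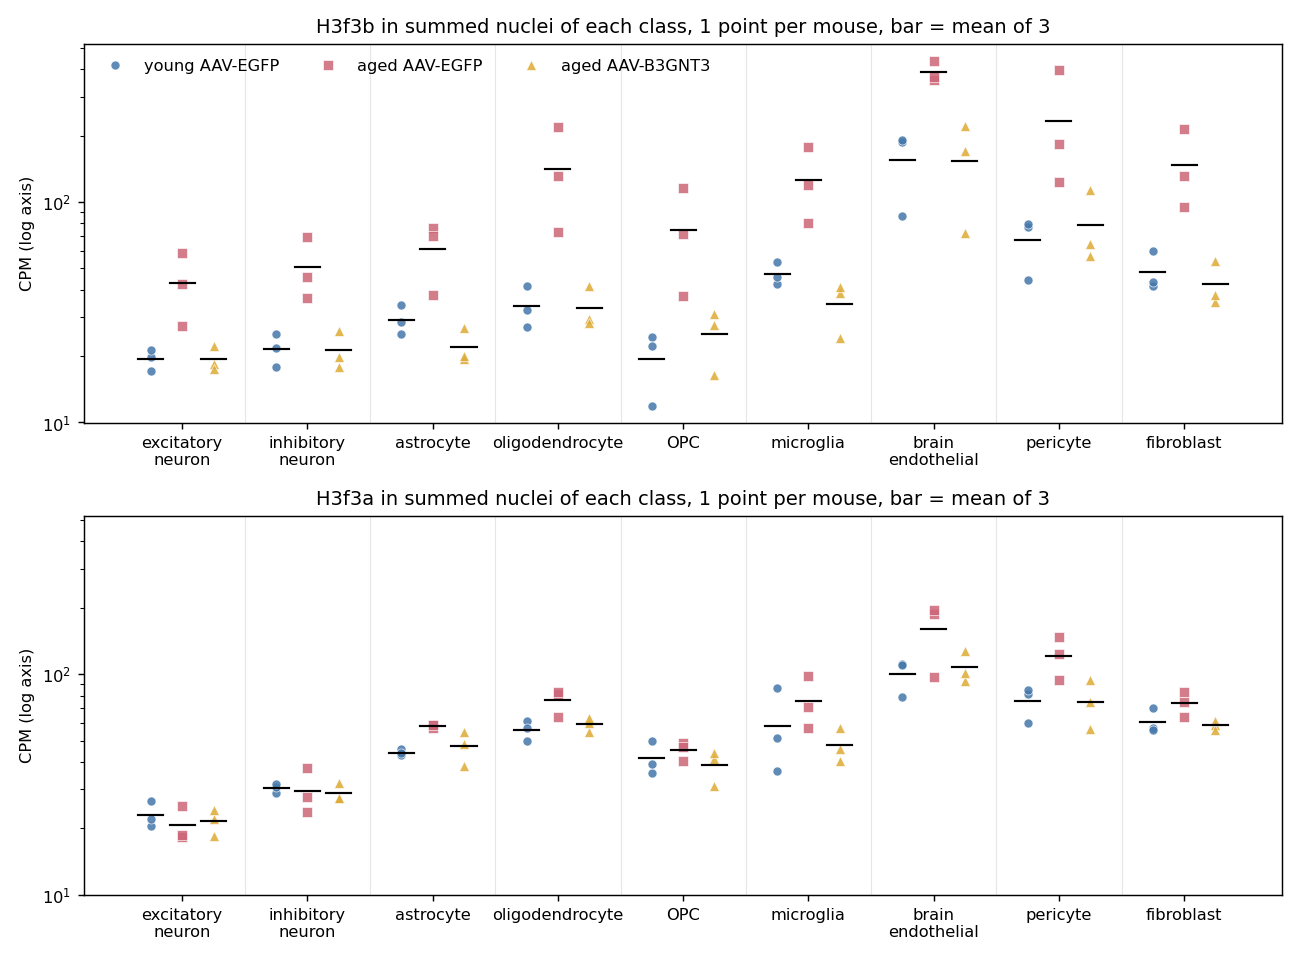
H3f3b (top) and H3f3a (bottom) in the 9 classes, in CPM on a log axis, with 1 point per mouse and a bar at the mean of 3 mice; OPC stands for oligodendrocyte precursor. The aged AAV-EGFP points of H3f3b lie above those of both other groups in each class, up to 434 CPM in brain endothelial cells, whereas the H3f3a points overlap between groups in most classes.

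H3f3a, the other H3.3 gene, differed less between groups. In oligodendrocytes it was at 49.7, 61.5 and 57.1 CPM in young, 64.2, 81.5 and 82.8 in aged AAV-EGFP and 54.6, 60.1 and 63.5 in aged AAV-B3GNT3 mice. There the aged AAV-EGFP samples were above the other groups, by a narrow margin. In excitatory neurons it was at 20.5, 22.1 and 26.5 CPM, then 18.2, 18.6 and 25.1, then 22.0, 18.4 and 24.3, and the 3 groups overlapped. Aged AAV-EGFP samples were all above the young samples in 3 of 9 classes and all above the aged AAV-B3GNT3 samples in 4 of 9, against 14.3% and 11.4% of all gene-by-class combinations tested.

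Changes were then fitted across all genes of each class with edgeR's quasi-likelihood test. A gene was called at an adjusted p under 0.05 after Benjamini-Hochberg adjustment over all genes tested in the class. In the first comparison (age) the aged mice with AAV-EGFP were set against the young mice with AAV-EGFP, and in the second (AAV-B3GNT3) the aged mice with AAV-B3GNT3 against those with AAV-EGFP. They share the 3 aged AAV-EGFP samples, so a sample that is high there moves both. By the study's methods, aged mice came from a National Institute on Aging colony and young mice from Jackson Laboratories. Age and supplier therefore cannot be told apart in the first comparison. The genes were selected on results of these same samples, and the calls describe these samples without independent support.

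With age, the H3f3b log2 fold change was above 0 in 9 of 9 classes, from 1.08 to 2.07, and 7 classes were called. It rose 4.19-fold in oligodendrocytes (log2 fold change 2.07 ± 0.32 SE, adjusted p = 0.00205), 3.81-fold in pericytes (1.93 ± 0.38, adjusted p = 0.0172) and 3.71-fold in oligodendrocyte precursors (1.89 ± 0.36, adjusted p = 0.0311). It rose 2.68-fold in microglia (1.42 ± 0.32, adjusted p = 0.00737), and between 2.11-fold and 2.33-fold in astrocytes, excitatory neurons and inhibitory neurons. Brain endothelial cells (1.34 ± 0.37, adjusted p = 0.110) and fibroblasts (1.59 ± 0.30, adjusted p = 0.0510) did not pass. DESeq2 called 8 classes, fibroblasts included, and with only the 2 groups compared edgeR called 5, without inhibitory neurons (adjusted p = 0.0548) and precursors (0.0692). Among all genes tested in a class, the H3f3b fold change stood between percentile 96.9 and percentile 99.8. Without aged AAV-EGFP replicate 2, the highest sample, the estimates were 0.85 to 1.61 and 4 classes were called.

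With AAV-B3GNT3, the H3f3b log2 fold change was below 0 in 9 of 9 classes, from -2.08 to -1.15, and 5 classes were called. It fell in oligodendrocytes (-2.08 ± 0.31, adjusted p = 0.00618), microglia (-1.87 ± 0.30, adjusted p = 0.00419), pericytes (-1.71 ± 0.37, adjusted p = 0.0440), astrocytes (-1.5 ± 0.24, adjusted p = 0.00981) and excitatory neurons (-1.15 ± 0.22, adjusted p = 0.0355). Fibroblasts (-1.76, adjusted p = 0.0599), oligodendrocyte precursors (-1.58, adjusted p = 0.0890), brain endothelial cells (-1.35, adjusted p = 0.120) and inhibitory neurons (-1.25, adjusted p = 0.0750) did not pass. DESeq2 called 7 classes, with inhibitory neurons (adjusted p = 0.000159), fibroblasts (0.00365) and precursors (0.0191) added and pericytes lost (0.132). The endothelial class, which the vector addresses, was not called by DESeq2 either (adjusted p = 0.150), on 45 to 117 nuclei per sample. Without a filter on low counts, or without aged AAV-EGFP replicate 1, edgeR called 9 of 9 classes in both comparisons, brain endothelial cells included (adjusted p = 0.0218 and 0.0434 with AAV-B3GNT3). The unfiltered edgeR fit gave far lower adjusted p values at similar estimates (oligodendrocytes -2.05, adjusted p = 4.66e-31, against 0.00618 in the main fit). Its calls are therefore not comparable with those of the main fit. With only the 2 groups compared, 4 classes were called, with excitatory neurons (adjusted p = 0.0550) and pericytes (0.0797) lost and inhibitory neurons (0.0441) gained. The estimates were -1.62 to -0.85 with 3 classes called when aged AAV-EGFP replicate 2 was left out, and 1 class was called when aged AAV-B3GNT3 replicate 2 was left out.

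The H3f3a log2 fold change with age ran from -0.16 to 0.69 and was called in 1 of 9 classes, oligodendrocytes (0.45 ± 0.14, adjusted p = 0.0398). That call was lost with DESeq2 (adjusted p = 0.0531), without a filter on low counts (0.0524) and with only the 2 groups compared (0.0605). With AAV-B3GNT3 it ran from -0.70 to 0.06 with 0 classes called, and the lowest adjusted p was 0.117 in oligodendrocytes. H3f3a was lower with AAV-B3GNT3 at an unadjusted p under 0.05 in 3 classes, and DESeq2 called 0. With age the estimates in neurons were -0.16 ± 0.16 (excitatory) and -0.04 ± 0.16 (inhibitory).

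The balance of the 2 H3.3 genes was measured within each sample as the share of H3.3 UMIs (H3f3a plus H3f3b) that came from H3f3b, which does not depend on how libraries are scaled. In excitatory neurons the share was 45.6, 47.3 and 44.6% in young, 60.1, 75.9 and 62.8% in aged AAV-EGFP and 45.6, 48.6 and 47.9% in aged AAV-B3GNT3 mice. In oligodendrocytes it was 35.3, 40.4 and 36.1%, then 53.2, 72.8 and 61.2%, then 35.1, 31.9 and 39.5%. Both classes thus had H3f3b as the lesser source of UMIs in young and aged AAV-B3GNT3 mice and as the greater source in aged AAV-EGFP mice. In microglia the share was 45.5, 38.2 and 55.6%, then 58.5, 71.4 and 54.7%, then 45.7, 37.5 and 41.9%, where young replicate 3 exceeded aged AAV-EGFP replicate 3.

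The mean share rose from young to aged AAV-EGFP mice by 10.5 percentage points in astrocytes at the least and by 28.3 in oligodendrocyte precursors at the most. Means of the aged AAV-B3GNT3 mice were 12.6 points (pericytes) to 26.9 points (oligodendrocytes) under those of the aged AAV-EGFP mice. Aged AAV-EGFP samples were all above young samples in 6 of 9 classes and all above aged AAV-B3GNT3 samples in 7 of 9. No share over all genes was computed for such a ratio, and the 9 classes come from the same 9 libraries. These counts are therefore only a description. Differences among groups were tested by exact permutation of the F value, enumerating all 280 ways to part 9 samples into 3 groups. It gave p values from 0.0107 in excitatory neurons to 0.332 in brain endothelial cells, with 5 of 9 classes at an unadjusted p under 0.05. After adjustment over the 9 classes 0 of 9 passed, with adjusted p values from 0.0643 to 0.332. A pairwise exact test of 3 mice against 3 cannot give a p below 0.1. The contrast of H3f3b with H3f3a was chosen with earlier results of these samples known. The permutation p values thus describe these samples without independent support.

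**Figure D2:**
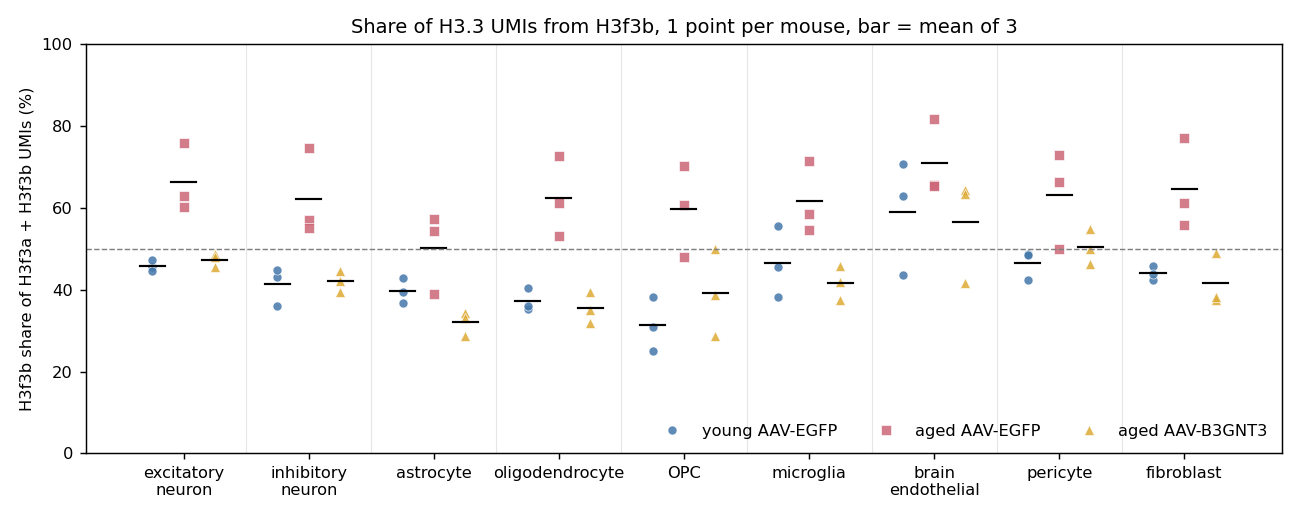
Share of H3.3 UMIs that came from H3f3b (percent) by class, with 1 point per mouse, a bar at the mean of 3 mice and a dashed line at equal shares. The aged AAV-EGFP means run from 50.2% in astrocytes to 70.8% in brain endothelial cells, and those of both other groups are lower in each class.

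The mean sum of both genes was highest in aged AAV-EGFP mice in 9 of 9 classes. In oligodendrocytes H3f3a and H3f3b together reached 89.7 ± 13.1 CPM in young, 216 ± 81.0 among aged AAV-EGFP and 92.4 ± 11.0 CPM among aged AAV-B3GNT3 mice (SD, n = 3 each). In excitatory neurons the sums were 42.4 ± 5.09, 63.6 ± 16.2 and 40.9 ± 5.38 CPM. In these 2 classes the aged AAV-EGFP mice also had the widest spread, whereas in brain endothelial cells they had the narrowest (SD of 16.7 CPM, against 51.3 in young and 86.5 in aged AAV-B3GNT3 mice).

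Across classes, without regard to group, both H3.3 genes were at their lowest in neurons and at their highest in vessels. Mean H3f3b over 9 samples descended from brain endothelial cells (232 ± 127 CPM, SD) through pericytes (126 ± 109), fibroblasts (78.9 ± 59.7), microglia (69.2 ± 49.7), oligodendrocytes (69.0 ± 64.9), oligodendrocyte precursors (39.8 ± 33.2), astrocytes (37.6 ± 21.0) and inhibitory neurons (31.2 ± 17.2) to excitatory neurons (27.2 ± 14.2). Each neighbouring pair in this order differed by less than its spread. The order depends on pooling the groups. In young mice alone mean H3f3b in oligodendrocyte precursors (19.5 CPM) was below that in inhibitory neurons (21.6) and near that in excitatory neurons (19.4). H3f3a fell from 123 ± 41.3 CPM in brain endothelial cells to 21.7 ± 3.06 in excitatory neurons. Per kilobase of annotated exon, the mean level in endothelial cells was 77.8 CPM for H3f3b and 34.96 for H3f3a, and in excitatory neurons 9.15 and 6.20. Counts from a 3′ kit need not scale with exon length (2.98 kb for H3f3b, 3.50 kb for H3f3a), so these values do not compare the 2 genes. A lower level in a class may mean fewer transcripts per nucleus or a larger total of other transcripts, and CPM values cannot tell these apart.

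Of the 90 combinations of 10 genes and 9 classes, 77 had counts high enough to be tested. H2afx and H1f0 were tested in 4 classes (both neuron classes, astrocytes and oligodendrocytes), H2afj in 7, Hmgn1 in 8 and the other 6 genes in 9. Of the 77, 18 were called with age and all 18 rose, while 11 were called with AAV-B3GNT3 and all 11 fell. Over all 95755 gene-by-class combinations tested, 8.49% were called with age and 2.67% with AAV-B3GNT3, in either direction. H3f3b made up 7 of the 18 and 5 of the 11. The aged AAV-EGFP samples were all above the young samples in 37 of the 77 combinations (14.3% of all gene-by-class combinations tested) and all above the aged AAV-B3GNT3 samples in 34 (11.4%).

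The calls are set here against the share of all genes called in the same class. With age, oligodendrocytes had 5 of 10 called (21.3% of 13259 genes tested), astrocytes 4 of 10 (12.1%), excitatory neurons 3 of 10 (14.3%), inhibitory neurons 2 of 10 (3.21%) and microglia 2 of 8 (9.17%). Precursors had 1 of 8 (1.1%), pericytes 1 of 6 (1.27%), brain endothelial cells 0 of 7 (0.26%) and fibroblasts 0 of 8 (0.0765%). With AAV-B3GNT3, oligodendrocytes had 4 of 10 (9.52%), astrocytes 3 of 10 (4.94%), excitatory neurons 2 of 10 (2.63%), microglia 1 of 8 (2.19%) and pericytes 1 of 6 (0.459%). Inhibitory neurons (0.0519%), precursors (0.172%), brain endothelial cells (0.24%) and fibroblasts (0%) had 0 called. In fibroblasts edgeR called 0 genes at all with AAV-B3GNT3, where 1171 had an unadjusted p under 0.05 and DESeq2 called 33. Without H3f3b, the median log2 fold change of the other genes with age was 0.10 in inhibitory neurons at the least and 0.90 in brain endothelial cells at the most. With AAV-B3GNT3 it was -0.71 to -0.10, and the median over all genes tested stayed between -0.02 and 0.02 in every class and comparison.

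**Figure D3:**
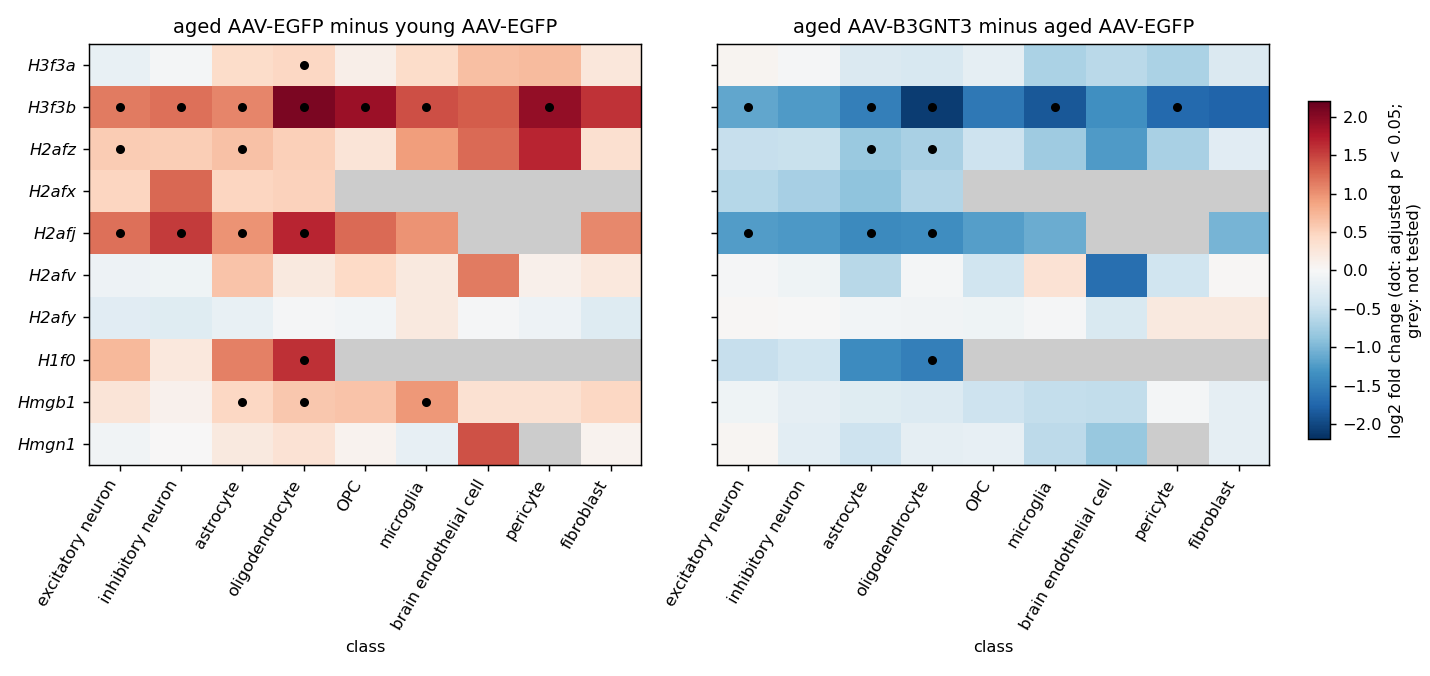
Log2 fold changes of the 10 genes (rows) in 9 classes (columns) for aged AAV-EGFP minus young AAV-EGFP (left) and aged AAV-B3GNT3 minus aged AAV-EGFP (right), with a dot where the adjusted p was under 0.05 and grey where counts were too low to test. H3f3b (1.08 to 2.07 on the left) and H2afj form the darkest rows, and the H2afy row is close to white.

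H2afj, which encodes H2A.J, a variant known to accumulate in senescent fibroblasts, had the next largest number of calls after H3f3b. In oligodendrocytes it was at 21.6, 22.4 and 18.4 CPM in young, 47.5, 84.6 and 68.3 in aged AAV-EGFP and 22.5, 22.8 and 31.9 in aged AAV-B3GNT3 mice. All 3 aged AAV-EGFP samples were above the 6 others. It rose with age in oligodendrocytes (log2 fold change 1.68 ± 0.22, adjusted p = 0.00188), inhibitory neurons (1.54 ± 0.28, adjusted p = 0.0327), excitatory neurons (1.22 ± 0.25, adjusted p = 0.0135) and astrocytes (0.99 ± 0.26, adjusted p = 0.0224). With only the 2 groups compared, the call in inhibitory neurons was lost (adjusted p = 0.0532). With AAV-B3GNT3 it fell in astrocytes (-1.40 ± 0.27, adjusted p = 0.0153), oligodendrocytes (-1.37 ± 0.21, adjusted p = 0.00618) and excitatory neurons (-1.23 ± 0.26, adjusted p = 0.0383), the last of which was lost with only the 2 groups compared (adjusted p = 0.0550). The estimate had the same direction in all 7 classes tested in each comparison. In inhibitory neurons H2afj was at 3.91, 7.47 and 3.72 CPM in young, 11.7, 18.0 and 15.6 in aged AAV-EGFP and 6.10, 4.95 and 7.60 in aged AAV-B3GNT3 mice.

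The H2A.Z genes, whose product marks promoters and enhancers, had unequal numbers of calls. H2afz (H2A.Z.1) rose with age in astrocytes (0.65 ± 0.20, adjusted p = 0.0489) and excitatory neurons (0.56 ± 0.17, adjusted p = 0.0476), and it fell with AAV-B3GNT3 in astrocytes (-0.82 ± 0.21, adjusted p = 0.0348) and oligodendrocytes (-0.72 ± 0.18, adjusted p = 0.0284). Of the rises with age, that in astrocytes was lost with DESeq2 (adjusted p = 0.0805), and both were lost with only the 2 groups compared (0.0608 and 0.0570). In astrocytes its values were 16.9, 24.4 and 18.0 CPM in young, 28.7, 35.9 and 28.8 in aged AAV-EGFP and 15.8, 16.6 and 20.9 in aged AAV-B3GNT3 mice, and the aged AAV-EGFP samples stood above the rest. H2afv (H2A.Z.2) was called in 0 of 9 classes in either comparison, with a lowest adjusted p of 0.0549 with age and 0.0838 with AAV-B3GNT3 (2 classes in each at an unadjusted p under 0.05; 0 and 0 called by DESeq2). Its largest estimates were in brain endothelial cells, at 39.5, 59.4 and 58.0 CPM in young, 148, 112 and 92.3 in aged AAV-EGFP and 29.2, 43.4 and 33.3 in aged AAV-B3GNT3 mice. In excitatory neurons it stayed between 8.42 and 11.0 CPM in all 9 samples.

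H1f0, the gene of linker histone H1.0 that is typical of resting and differentiated cells, changed in oligodendrocytes. It was at 7.48, 3.27 and 4.10 CPM in young, 10.3, 23.3 and 13.5 in aged AAV-EGFP and 3.55, 6.76 and 6.16 in aged AAV-B3GNT3 mice, with no overlap of aged AAV-EGFP and the others. The log2 fold change with age was 1.61 ± 0.37 (adjusted p = 0.00950), and it fell with AAV-B3GNT3 (-1.5 ± 0.35, adjusted p = 0.0209). H2afx, the gene of the variant that is phosphorylated at DNA breaks, was low in every class, with a mean of 2.10 CPM in excitatory neurons and 4.05 in oligodendrocytes. Its estimates were above 0 with age (0.47 to 1.27) and below 0 with AAV-B3GNT3 (-0.88 to -0.63) in all 4 classes tested, and 0 passed, with a lowest adjusted p of 0.0618 (1 class with age and 2 with AAV-B3GNT3 at an unadjusted p under 0.05; 1 and 0 called by DESeq2).

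H2afy, which encodes macroH2A1, a large variant linked to silent chromatin, was called in 0 of 9 classes in both comparisons, where its log2 fold changes ran from -0.29 to 0.21 and from -0.33 to 0.22. Its oligodendrocyte values lay between 53.8 and 66.2 CPM in all 9 samples. An unadjusted p under 0.05 was reached with age in 2 classes, excitatory and inhibitory neurons, and with AAV-B3GNT3 in 0. DESeq2 called 0 in both comparisons. It was highest in microglia (90.3 ± 12.1 CPM, SD, n = 9) and lowest in excitatory neurons (35.7 ± 3.43).

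Of the HMG genes, Hmgb1 rose with age in microglia (0.96 ± 0.26, adjusted p = 0.0228), oligodendrocytes (0.60 ± 0.13, adjusted p = 0.00742) and astrocytes (0.45 ± 0.14, adjusted p = 0.0452). DESeq2 called 1 of these 3 rises, that in oligodendrocytes, and gave an adjusted p of 0.0695 in microglia and 0.0666 in astrocytes. HMGB1 is a DNA-bending protein that also acts as an alarm signal when it leaves a cell. In microglia it was at 85.2, 53.4 and 72.9 CPM in young, 97.4, 165 and 154 in aged AAV-EGFP and 96.4, 105 and 88.8 in aged AAV-B3GNT3 mice, so that aged AAV-B3GNT3 mice lay between the other groups with a small overlap. With AAV-B3GNT3 edgeR called 0 classes and DESeq2 0 (log2 fold change -0.54 to -0.05, lowest adjusted p = 0.148, 3 classes at an unadjusted p under 0.05). Hmgn1, which loosens chromatin, was called in 0 of 8 classes in either comparison (1 class in each at an unadjusted p under 0.05; 0 and 0 called by DESeq2). In brain endothelial cells Hmgn1 was at 25.1, 46.7 and 26.4 CPM in young, 138, 52.4 and 81.4 in aged AAV-EGFP and 46.8, 53.1 and 46.7 in aged AAV-B3GNT3 mice (log2 fold change with age 1.40 ± 0.44, adjusted p = 0.163).

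By the GENCODE annotation 6 genes span under 10 kb (H3f3b, H2afz, H2afx, H2afj, H1f0 and Hmgn1), and they are set beside the 4 longer ones. In oligodendrocytes the median log2 fold change with age was 1.07 for the 6 short members, 0.33 for H3f3a and H2afv (10 to 50 kb) and 0.29 for H2afy and Hmgb1 (over 50 kb). Over all genes of that class it was 0.41 for 2811 genes under 10 kb, 0.04 for 6078 of 10 to 50 kb and -0.21 for 4359 over 50 kb. In excitatory neurons the medians over all genes were 0.23, 0.01 and -0.08, and those of the same members 0.64, -0.14 and 0.02. In microglia, where 4 of the short members were tested, they were 0.41, 0.08 and -0.16 over all genes and 0.96, 0.32 and 0.58 over the members. The order of the longer members was not that of all genes in excitatory neurons or microglia. There Hmgb1 was at 0.28 and 0.96 and H2afy at -0.25 and 0.21, in that order of classes. The part of gene span in these changes was not tested. The GENCODE span of Hmgb1 is 138 kb, but its RefSeq start windows (149051567 to 149053307, minus strand) lie near its 3′ end at 149046702. The RefSeq start window of H3f3b (116024455 to 116024754, minus strand) also lies well inside its GENCODE span, which runs to 116027962. Over the 9 classes, genes under 10 kb had medians from 0.23 to 0.83 with age and from -0.77 to -0.18 with AAV-B3GNT3. H3f3b, at 2.07 in oligodendrocytes, stood well above the median of its span range, while H2afz (0.52), H2afx (0.50) and Hmgn1 (0.31) lay close to it.

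**Figure D4:**
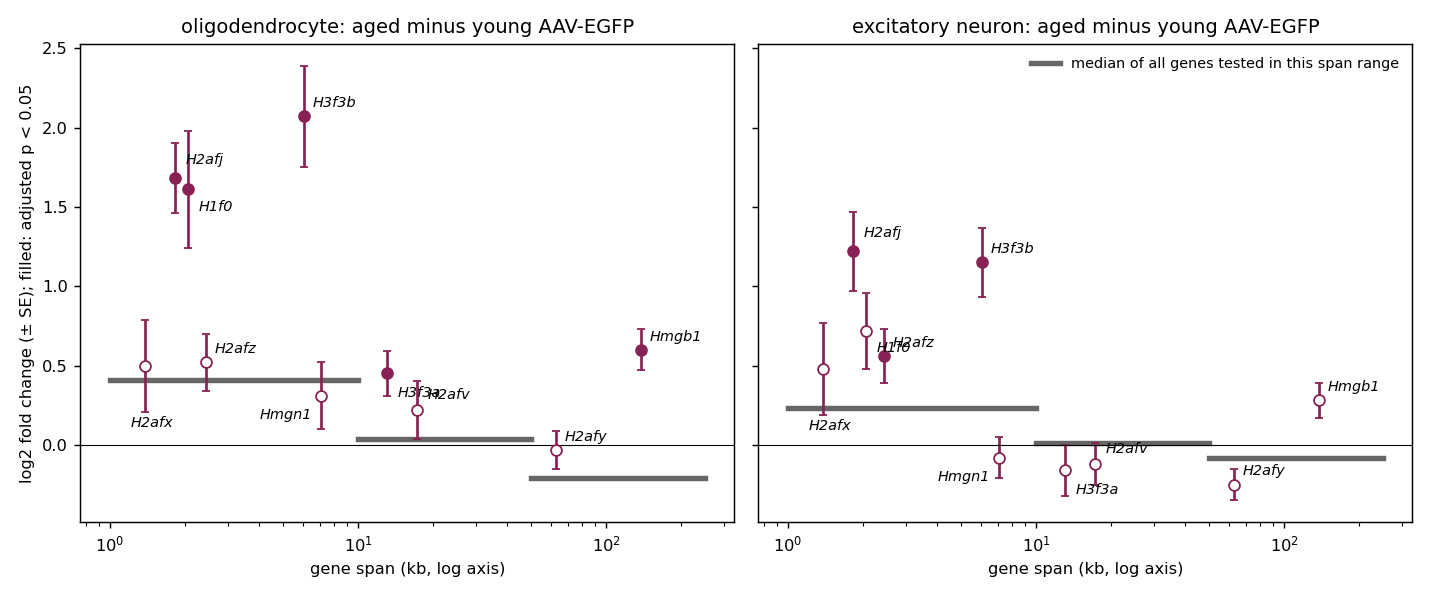
Log2 fold change with age of the 10 genes against gene span (kb, log axis) in oligodendrocytes and excitatory neurons, with SE bars, filled points for adjusted p under 0.05, and grey lines at the median of all genes in 3 span ranges. In oligodendrocytes the median over all genes was 0.41 under 10 kb and -0.21 over 50 kb, and H3f3b, H2afj and H1f0 lie farthest above the line of their range. Hmgb1 is drawn at its GENCODE span of 138 kb, although its RefSeq starts lie near its 3′ end. H3f3b is drawn at its GENCODE span of 6.05 kb, although its RefSeq start lies well inside that span.

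Transcripts of ribosomal proteins, which come from short and highly expressed genes and are mostly cytoplasmic, moved in the same samples. Their sum over 83 genes was 1239, 1558 and 1337 CPM in oligodendrocytes of young mice, 2025, 3110 and 2614 in aged AAV-EGFP and 1233, 1218 and 1455 in aged AAV-B3GNT3 mice. In excitatory neurons it was 639, 669 and 681 CPM, then 739, 991 and 940, then 597, 651 and 660. Aged AAV-EGFP replicate 2 was again the highest sample in both classes. Of 80 ribosomal protein genes tested in oligodendrocytes, 65 rose with age and 67 fell with AAV-B3GNT3, where 21.3% and 9.52% of all genes in that class were called. Their median log2 fold change over the classes ran from 0.44 to 1.10 with age and from -1.28 to -0.55 with AAV-B3GNT3, in each class nearer to 0 than that of H3f3b. Mean CPM of the 13 mitochondrially encoded genes in aged AAV-EGFP mice was 1.03 to 2.69 times that in young mice and 1.26 to 2.42 times that in aged AAV-B3GNT3 mice. The part of such RNA in the changes of H3f3b and the other genes was not tested.

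**Figure D5:**
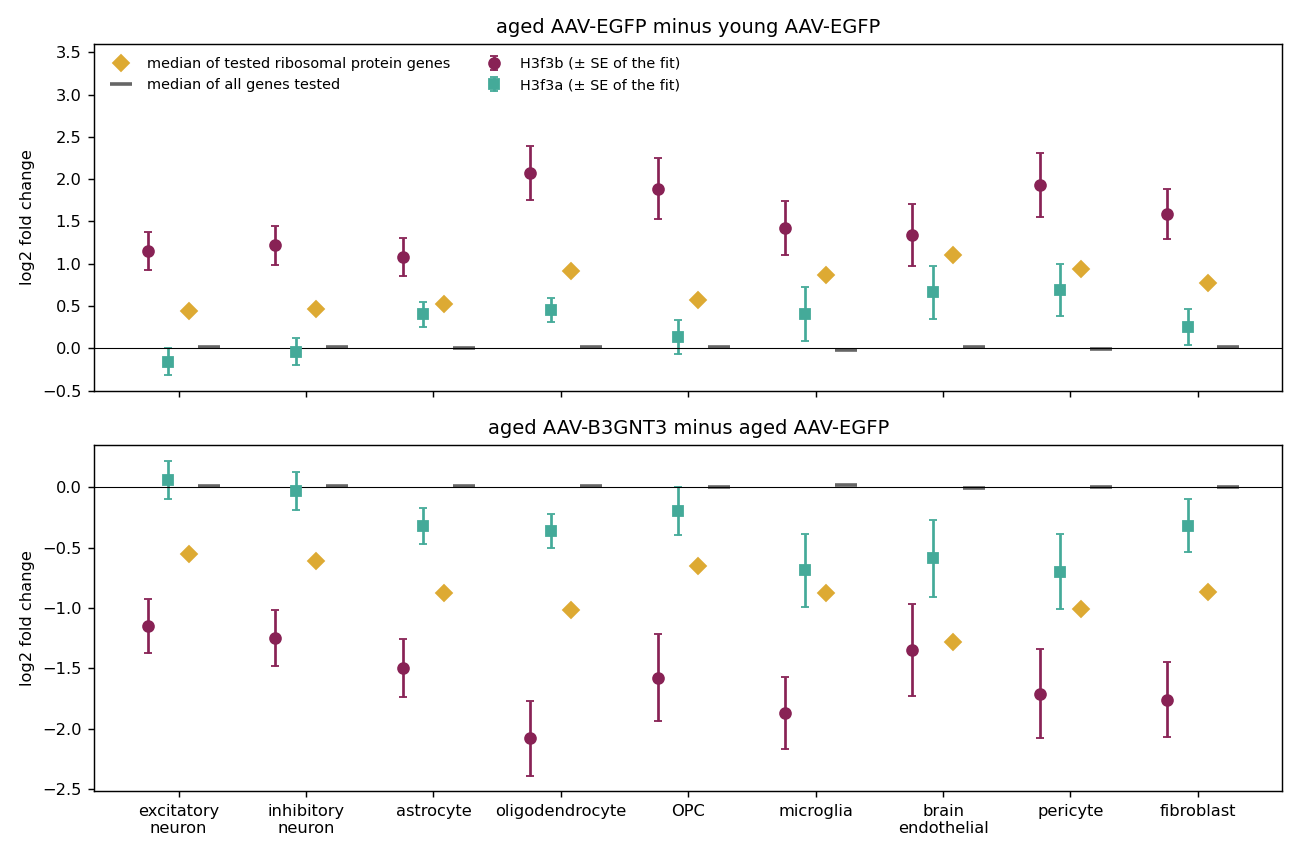
Log2 fold changes of H3f3b and H3f3a (with SE bars) by class beside the median of the tested ribosomal protein genes and the median of all genes, for age (top) and AAV-B3GNT3 (bottom). H3f3b lies farther from 0 than the ribosomal median (0.44 to 1.10 with age) in each class, and H3f3a lies nearer to 0.

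The markers of the abundant cell types were measured in the classes where they do not belong, as a sign of free RNA or mixed nuclei. The 6 excitatory neuron markers summed to 374 to 403 CPM in oligodendrocytes of young mice, 225 to 431 in aged AAV-EGFP and 295 to 346 in aged AAV-B3GNT3 mice. In the same sums the 6 astrocyte markers reached 387 to 762, 309 to 467 and 381 to 568 CPM. Over the 8 classes other than their own, the mean of aged AAV-EGFP mice was above that of young mice in 2 classes for excitatory neuron markers, 2 for oligodendrocyte markers and 3 for astrocyte markers. It was above that of aged AAV-B3GNT3 mice in 4, 4 and 3 of the 8 classes, by up to 2.13 times for oligodendrocyte markers. The part of free RNA or mixed nuclei in the H3f3b differences was not tested by these sums. An estimate of free RNA from such markers took 5.88 to 67.1% of the UMIs of a class and sample. The profile subtracted was the sum of all barcodes of the library, nuclei included, so it also takes away RNA of the nuclei themselves. With that amount subtracted, a setting chosen after seeing the data, the H3f3b log2 fold change remained 0.98 to 2.14 with age and -2.26 to -1.11 with AAV-B3GNT3, called in 1 and 3 classes. Of the 77 combinations 68 could then be tested, and calls numbered 2 with age and 3 with AAV-B3GNT3, so most calls were lost. Calls also rested on single mice: without aged AAV-EGFP replicate 2 they were 7 with age and 4 with AAV-B3GNT3, without young AAV-EGFP replicate 3 they were 8 with age, and without aged AAV-B3GNT3 replicate 2 they were 2 with AAV-B3GNT3.

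The genes most like H3f3b were sought among the 4076 genes tested in every class, by Pearson's r of log2(CPM + 1) deviations from the class mean over 81 class-by-sample sums. These sums share 9 libraries, so r is a description. The highest were Ubb (r = 0.89), which encodes ubiquitin, Fau (0.89), a ribosomal protein fused to a ubiquitin-like one, Eif1 (0.88), an initiation factor, Ppia (0.87), a proline isomerase, and Oaz1 (0.85), a regulator of polyamines. H3f3a came at rank 153 (r = 0.57) and Hmgb1 at rank 163 (0.55). H2afz (0.43), H2afv (0.29) and H2afy (-0.13) were further down, the last at rank 2017.

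Genes of factors that place the variants are counted here against the same shares of all combinations, 8.49% with age and 2.67% with AAV-B3GNT3. Of 11 chaperones and remodellers of H3.3 (88 combinations tested), 0 rose and 5 fell with age, and 0 were called with AAV-B3GNT3 by edgeR or DESeq2 (5 at an unadjusted p under 0.05). Nasp, a histone chaperone, made up 4 of the 5, with log2 fold changes of -0.61 ± 0.17 in astrocytes, -0.57 ± 0.13 in inhibitory neurons, -0.51 ± 0.12 in excitatory neurons and -0.44 ± 0.15 in oligodendrocytes (adjusted p = 0.0292, 0.0439, 0.0185 and 0.0461). DESeq2 kept the calls in neurons and lost those in astrocytes (adjusted p = 0.0538) and oligodendrocytes (0.0517). Ubn2, a subunit of the HIRA complex and the most abundant of the list, was not called (-0.48 to -0.11 with age, lowest adjusted p = 0.0710). Of 12 genes for H2A.Z exchange (74 combinations), 1 rose with age and 0 were called with AAV-B3GNT3 by edgeR or DESeq2 (9 at an unadjusted p under 0.05). Ino80, the most abundant, ran from -0.25 to 0.34 with age and was not called.

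Other HMG genes (10 genes, 53 combinations) had 7 rises and 1 fall with age and 1 fall with AAV-B3GNT3, against 8.49% and 2.67% of all combinations called. Hmgb3 rose in excitatory neurons (1.91 ± 0.42, adjusted p = 0.0154), astrocytes (1.23 ± 0.28, adjusted p = 0.0111) and oligodendrocytes (1.23 ± 0.35, adjusted p = 0.0253). Hmgb2, a relative of Hmgb1, rose in oligodendrocytes (3.17 ± 0.74, adjusted p = 0.0101) and excitatory neurons (1.71 ± 0.35, adjusted p = 0.0130). Other histone genes (13 genes, 43 combinations) had 4 rises and 1 fall with age and 7 falls with AAV-B3GNT3, against the same shares. H1fx, which encodes linker histone H1.10, rose in oligodendrocytes (2.31 ± 0.39, adjusted p = 0.00249) and excitatory neurons (1.37 ± 0.30, adjusted p = 0.0161). With AAV-B3GNT3 it fell in oligodendrocytes (-1.44 ± 0.33, adjusted p = 0.0195). Hist1h1c, which encodes linker histone H1.2, rose with age in oligodendrocytes (1.5 ± 0.35, adjusted p = 0.0103) and fell with AAV-B3GNT3 in astrocytes (-1.47 ± 0.28) and oligodendrocytes (-1.44 ± 0.33). Hist3h2ba, an H2B gene, rose with age in oligodendrocytes (0.84, adjusted p = 0.0303) and fell with AAV-B3GNT3 in oligodendrocytes (-1.84 ± 0.26, adjusted p = 0.00554) and excitatory neurons (-0.99 ± 0.23, adjusted p = 0.0467). Hist1h2be, another H2B gene and the most abundant of the list, fell with age in excitatory neurons (-0.48 ± 0.11, adjusted p = 0.0211). A 3′ kit would miss transcripts of clustered histone genes that lack a poly(A) tail. Which forms were counted here was not tested.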

How the data were processed

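Nuclei were isolated from frozen hemispheres (pooled cortex and hippocampus), sorted by FACS as Hoechst-stained singlets and sequenced with the 10x Genomics 3′ v3.1 kit, and each mouse gave 1 library. The deposited matrices are raw counts, whole UMIs per gene and barcode, and the authors made them with Cell Ranger on mm10. The labels name version 4.0.0, but the matrix headers name a later release, and whether intronic reads were counted is not given in the sources used here.

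Limits of 200 to 5000 genes and of 10% mitochondrial UMIs kept 74895 of 77823 barcodes, and the highest doublet scores were removed at a preset 0.8% per 1000 barcodes, which left 70218. Median UMIs per kept nucleus were 3004 to 5292 by library. Nuclei were clustered by the Leiden method (resolution 0.3) on 2000 variable genes, 15 components and 20 neighbours with scanpy 1.11.5, and none of the 10 genes described was among the variable genes. A cluster took the name of a class on 3 or more of its markers, counting a marker at 2 times the level of the median cluster and in 10% of nuclei or more, where no other class had over 50% of its markers. That gave names to 15 of 19 clusters, and lists for smooth muscle, choroid plexus, ependymal cells, T cells and macrophages named none.

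UMIs were summed per mouse and class. Genes passed filterByExpr (minimum count 10), were scaled by TMM and tested with edgeR 4.0.16, 1 fit per class over all 9 samples, two-sided, with Benjamini-Hochberg adjustment over all genes of the class. SE values come from the F statistic. Spans and exon lengths are from GENCODE vM21, and promoter windows from RefSeq. Both H3.3 genes, the HMG genes and ribosomal protein genes have processed pseudogene copies, and how reads that match several copies were counted was not tested. H3f3a overlaps 2 listed genes on the opposite strand. Replicates are separate mice. The fits were also run on simulated data as a check of the code, whose outcome is not given here.

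The genes, gene lists and tests were chosen with earlier results of these data known. From the other lists, genes were named when called in the same direction in at least 2 classes of 1 comparison, or as the most abundant of a list, up to 10. A gene that this rule names is not reported here. Alternatives were DESeq2 1.42.0, RLE size factors, no filter, 2 groups only, a replicate block, no doublets removed, finer clustering, averaging over nuclei and leaving out each mouse. Subtraction of free RNA was added after seeing the data.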

Additional observations from a re-analysis of the deposited data

Results flagged for a closer look

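The 1603 nuclei of unnamed clusters, which enter no comparison, held H3f3b at 24.02, 24.4 and 28.8 CPM in young AAV-EGFP mice, 35.1, 103 and 75.1 in aged AAV-EGFP mice and 23.2, 26.0 and 44.6 in aged AAV-B3GNT3 mice. The mean of the aged AAV-EGFP mice was 71.1 ± 34.2 CPM, above the 25.8 ± 2.65 of the young controls and the 31.3 ± 11.7 of the aged AAV-B3GNT3 mice (SD, n = 3 each). These nuclei were drawn to attention as a signal above the controls in data that the comparisons leave out, so no test is given, and they come from the same 9 libraries.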

How the results depend on the processing

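The number of calls among the 10 genes moved more with the samples used than between edgeR and DESeq2. Subtraction of free RNA left the fewest calls with age. The 18 calls with age were 16 with DESeq2, 19 with RLE size factors, 23 without a filter, 20 with no doublets removed and 18 with finer clustering, but 11 with only the 2 groups compared and 2 with free RNA subtracted. The 11 calls with AAV-B3GNT3 were 14 with DESeq2, 11 with RLE size factors, 10 with only the 2 groups compared, 12 with no doublets removed and 12 with finer clustering, but 17 without a filter and 3 with free RNA subtracted. Leaving out 1 mouse gave 7 to 27 calls with age and 2 to 20 with AAV-B3GNT3. With age, 10 calls were left when replicate 3 of aged AAV-EGFP was dropped, and 11 when replicate 1 of either the young or the AAV-B3GNT3 mice was dropped. With AAV-B3GNT3, dropping replicate 1 gave 20 calls if taken from aged AAV-EGFP and 5 if taken from AAV-B3GNT3 mice. The H3f3b share passed the adjusted threshold in 0 classes, but in 6 with no doublets removed, 4 with finer clustering and 5 with shares averaged over nuclei, and leaving out 1 mouse gave 0 to 6 (6 without aged AAV-EGFP replicate 1). The cause of these moves was not tested. No called change of the 10 genes, and no H3f3b estimate, changed sign under any alternative; among the 125 combinations that were not called, 32 changed sign under at least 1. Over single mice left out, the H3f3b log2 fold change in oligodendrocytes was 1.61 to 2.37 with age and -2.38 to -1.62 with AAV-B3GNT3. Correlations of deviations between same-numbered samples ran from -0.26 to 0.24. Differently numbered samples were not compared, so these values cannot show whether replicate numbers pair the samples. The replicate block in edgeR gave 16 calls with age and 11 with AAV-B3GNT3. For H3f3b the block lost inhibitory neurons (adjusted p = 0.0545) and gained fibroblasts (0.0321) with age. With AAV-B3GNT3 it lost pericytes (0.0904) and gained fibroblasts (0.0240). No test of the share with a replicate block was run. Depth limits the rarer classes, where brain endothelial samples held 36 to 104 H3.3 UMIs, microglia 18 to 86 and pericytes 18 to 114.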

Other observations

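In the same unnamed nuclei H3f3b gave 53.1, 75.3 and 57.7% of H3.3 UMIs in aged AAV-EGFP mice, against 46.2, 45.4 and 41.0% in the young group and 28.6, 43.9 and 43.8% in aged AAV-B3GNT3 mice. By this share the aged AAV-EGFP samples were above all others, which was not so in every named class. By CPM they overlapped, with 35.1 in aged AAV-EGFP replicate 1 and 44.6 in aged AAV-B3GNT3 replicate 3. The counts behind these shares were small, at 12 to 122 H3f3b UMIs per sample.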
